A study of Homo sapiens with 9 samples.

Results

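The bombesin-like peptide system of RKO cells was examined in 4 genes out of the 23619 gene symbols measured: the receptors GRPR and NMBR, and the peptide precursors GRP and NMB. These 4 are the mammalian receptor and ligand pairs named after bombesin, a peptide of frog skin. They were chosen by name. GRPR was the anchor because it had been seen to lose promoter methylation in a DIP2C knockout (DIP2C-/-) clone and mRNA in DIP2C-/- clones. The level of GRPR against parental RKO is therefore given as a description with no p-value. Other genes are tested. The pathway lists were fixed with earlier results of these data known, and several list genes were named for their large change in DIP2C-/- clones. Their p-values are therefore not independent support.

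Gastrin-releasing peptide and neuromedin B are short secreted peptides, cut from larger precursors and amidated at their end, and the end of each peptide is what its receptor recognises. GRPR prefers gastrin-releasing peptide and NMBR prefers neuromedin B. Both receptors couple mainly to G proteins of the Gq/11 class, which activate phospholipase C beta and so raise calcium and protein kinase C activity. In the gut the peptides act as neural signals for acid and hormone release and motility, and GRPR, which normal colon epithelium hardly expresses, is found on many tumours of the colon, lung and prostate.

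The cell line, RKO, comes from a human colorectal carcinoma and is microsatellite-unstable. Parental RKO (2 samples, RKOparental-1 and RKOparental-2) was compared with 2 DIP2C-/- clones, E3 and C10, and with 5 DIP2C+/- clones, named A6-C9, A9-A12, F6-A7, G1-A5 and H9-A4. In the clones, adeno-associated virus targeting had removed part of a DIP2C coding exon from both alleles or from 1 allele. All cells were cultured for 48 h, and each sample was 1 library. Both DIP2C-/- clones had been made from a single DIP2C+/- clone, so they share its history, and clones carry drug selection and single-cell growth that the parental cells did not go through, with no clone of that history and intact DIP2C among the samples. The study's text describes fewer DIP2C+/- clones than are labelled here, and whether all of those labelled came from separate targeting events is not given in the sources used here. The p-values thus measure the spread between these samples, which may be technical for the parental cells and may understate the spread of independent clones.

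The libraries held 14772593 to 21486483 estimated counts, which came from 17134472 to 24863895 implied reads, and 3 counts corresponded to 0.140 to 0.203 CPM. DIP2C itself stood at 60.9 and 70.8 CPM (counts-per-million of the library total, scaled by TMM) in parental RKO, at 17.4 and 22.8 CPM in the DIP2C-/- clones and at 33.6 to 56.2 CPM in the DIP2C+/- clones, of which H9-A4 was the highest. H9-A4 stood apart from the other 4 DIP2C+/- clones, with a chi-square per degree of freedom of 118 to 138 against them over all genes where those 4 differed from each other by 24.7 to 63.5, so results are given with and without it where their size, error or call depends on it. Of the epithelial markers KRT18 and KRT8 averaged 192 and 15.1 CPM and CDX2, an intestinal transcription factor, 16.6 CPM. EPCAM, CDH1, KRT19, VIL1 and KRT20 averaged under 1 CPM, so several defining markers of colon epithelium were near 0. Of 7 neuroendocrine markers only ENO2 averaged above 1 CPM, with 52.7 CPM.

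The coding bases of the receptor-binding end are shown first because they are where the ligands are alike. The 30 bases of the GRP and NMB messages that encode the receptor-binding end of the peptides, read from GENCODE 44 transcripts mapped to GRCh37, are printed with the bases that both share in capitals. They had 23 of 30 bases in common.
GRP: GGCAACCaCTGGGCggtgGGgCACTTaATG
NMB: GGCAACCtCTGGGCcaccGGtCACTTcATG

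GRPR lies on the plus strand of chromosome X, from 16141688 to 16171641 in GRCh37, and its main transcript has 3 exons and 2417 bases. NMB occupies 85198360 to 85201794 of chromosome 15, minus strand, with 3 exons and a main transcript of 655 bases. GRP lies on the plus strand of chromosome 18, from 56887390 to 56898006, and NMBR occupies 142379467 to 142468259 of chromosome 6, minus strand. The 250 bases before the start of each of the 2 members that were expressed are printed next, from RefSeq on GRCh38.p14, because the promoter methylation of GRPR entered the choice of this gene family. Every CG, the site of DNA methylation, is in capitals, and it reads the same on both strands. The GRPR window is chrX:16123315-16123564 on the plus strand and the NMB window is chr15:84658200-84658449 on the minus strand.
GRPR: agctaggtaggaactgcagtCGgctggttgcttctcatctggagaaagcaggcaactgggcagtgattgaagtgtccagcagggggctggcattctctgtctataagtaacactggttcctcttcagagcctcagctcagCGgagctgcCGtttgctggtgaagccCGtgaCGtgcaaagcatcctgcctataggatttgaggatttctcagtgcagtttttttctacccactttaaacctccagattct
NMB: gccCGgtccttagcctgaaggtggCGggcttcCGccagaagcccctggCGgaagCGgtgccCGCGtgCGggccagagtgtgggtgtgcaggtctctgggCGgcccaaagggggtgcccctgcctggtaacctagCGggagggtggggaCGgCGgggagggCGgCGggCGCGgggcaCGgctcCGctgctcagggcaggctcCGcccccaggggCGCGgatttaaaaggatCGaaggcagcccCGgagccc

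The GRPR window held 5 CG and had a GC content of 50.8%, and 38.7% of the 27305 RefSeq promoter windows of this length held as few. The NMB window held 23 CG with a GC content of 74%, as many as or more than 76.7% of windows. The windows of GRP and NMBR each held 21 CG. At least 1 CG was present in 93.6% of all windows, and the median was 11. The methylation arrays of the study were not analysed here, so no level of methylation is given for these sites.

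GRPR, the receptor for gastrin-releasing peptide, was readily detected in 3 samples and close to the detection limit in the other 6. It stood at 23.4 and 25.05 CPM in RKOparental-1 and RKOparental-2, on 549 and 431 implied reads. The DIP2C-/- clones E3 and C10 had 0.386 and 0.207 CPM, on 8 and 4 reads. The DIP2C+/- clones F6-A7, A9-A12, G1-A5 and A6-C9 had 0.791, 0.0536, 0.0985 and 0.0510 CPM, on 15, 1, 2 and 1 reads, while H9-A4 had 25.5 CPM on 635 reads. Thus 6 of the 7 clones were close to the detection limit, and H9-A4 was level with the parental samples. In bulk RNA fewer GRPR-positive cells and less GRPR mRNA per cell cannot be told apart. No value lay between 0.791 and 23.4 CPM.

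**Figure D1:**
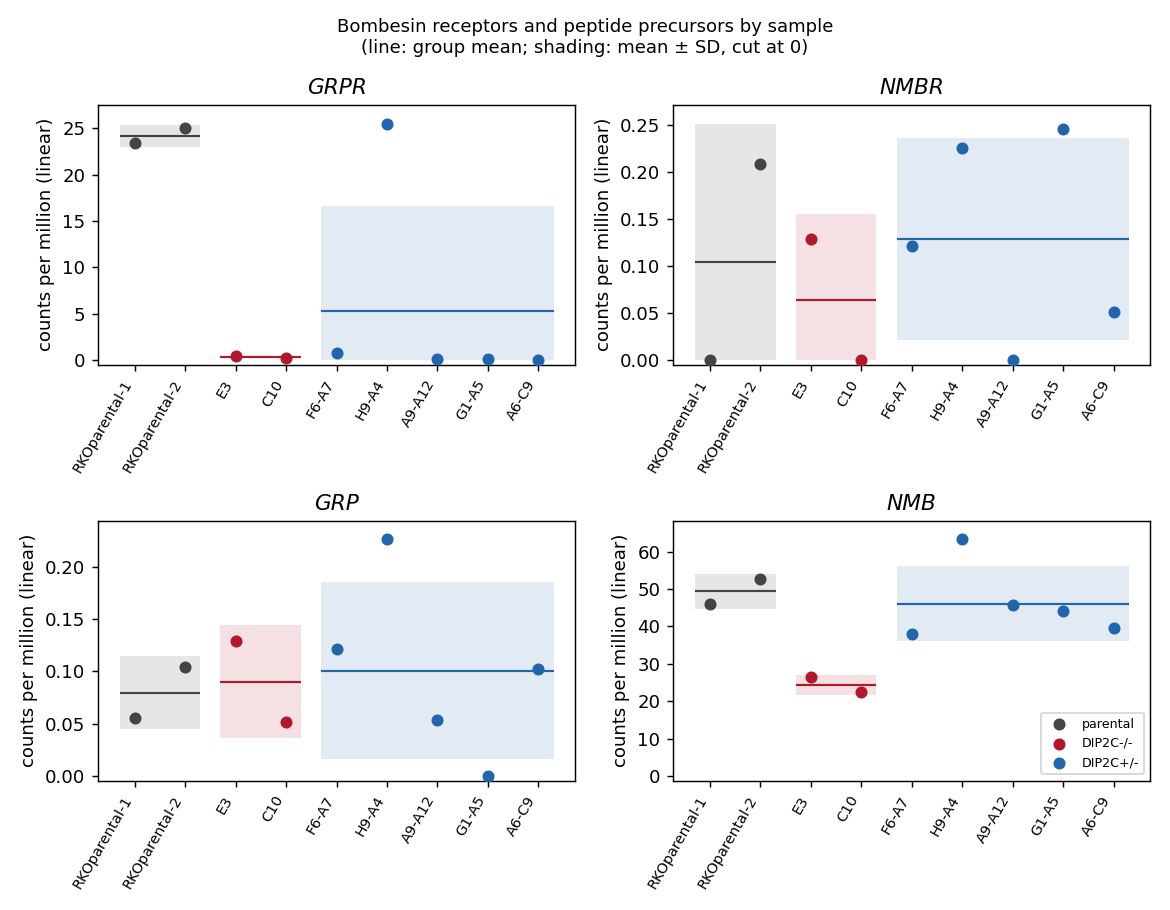
Levels of GRPR, NMBR, GRP and NMB in each of the 9 samples, in CPM on linear axes that start at 0, with points for samples, a line for the group mean and shading for the mean ± SD, cut at 0. GRPR is at 23.4 to 25.5 CPM in the parental samples and H9-A4 and at most 0.791 CPM elsewhere, NMB is lowest in E3 and C10, and NMBR and GRP are at most 0.246 CPM in every sample.

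As a share of the pooled parental reads, GRPR was at 1.66% in E3, with an exact 95% interval of 0.714% to 3.28% that covers counting error only, and at 0.863% (0.235% to 2.22%) in C10. In the DIP2C+/- clones it was at 3.20% (1.78% to 5.31%) in F6-A7, 0.171% (0.00433% to 0.955%) in A9-A12, 0.328% (0.0397% to 1.19%) in G1-A5 and 0.189% (0.00478% to 1.06%) in A6-C9. The interval of F6-A7 lay above those of A9-A12, G1-A5 and A6-C9, so residual GRPR differed among DIP2C+/- clones by more than counting error. The intervals of E3 and C10 overlapped each other and those of F6-A7, A9-A12, G1-A5 and A6-C9. H9-A4 stood at 105% (94.8% to 116%), which includes the parental level.

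**Figure D2:**
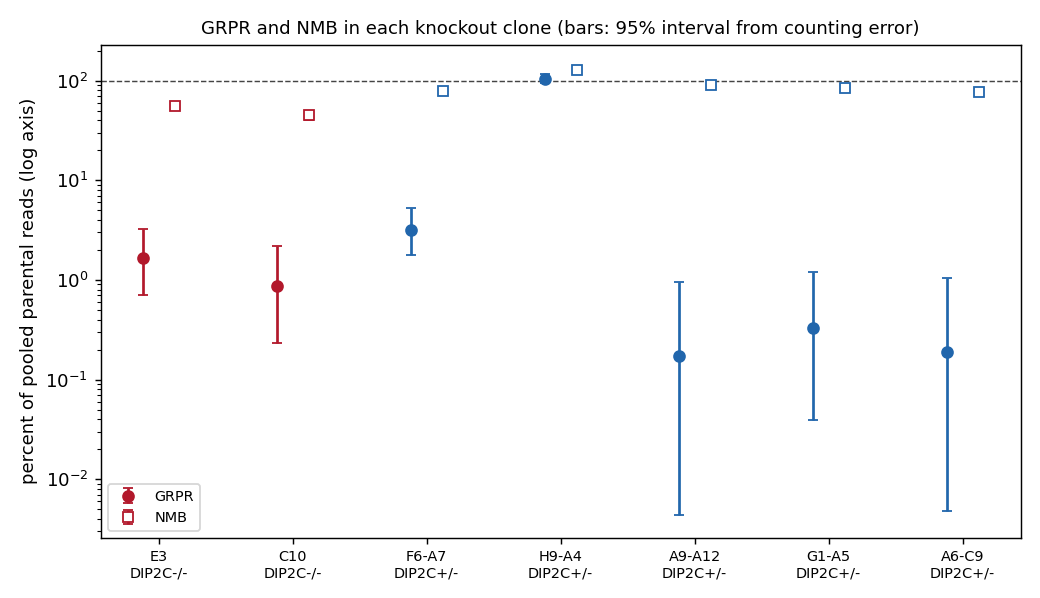
GRPR (filled circles) and NMB (open squares) in each clone as a percent of the pooled parental reads, on a log axis, with exact 95% intervals from counting error and a dashed line at the parental level; red is DIP2C-/- and blue is DIP2C+/-. GRPR is at 0.171% to 3.20% in 6 clones and at 105% in H9-A4, while NMB ranges from 45.0% to 128%.

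In the fit of all 9 samples the log2 fold change of GRPR was -6.35 ± 2.69 (SE) in DIP2C-/- clones against parental RKO, which had means of 0.297 ± 0.127 CPM (SD, n = 2) and 24.2 ± 1.18 CPM (SD, n = 2). Without H9-A4 it was -6.35 ± 0.87, so that clone set the width of the error and not the size. For DIP2C+/- clones the value was -2.20 ± 1.55 with H9-A4, at a mean of 5.30 ± 11.3 CPM (SD, n = 5), and -6.66 ± 0.66 without it, at a mean of 0.249 ± 0.362 CPM (SD, n = 4). Because H9-A4 sat at the parental level, the mean of the 5 clones described none of them.

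The contrast of DIP2C+/- with DIP2C-/- clones asks whether loss of 1 or of both alleles made a difference. Its DIP2C-/- values are among those that chose GRPR, so for GRPR it is given as a description too, with no p-value. GRPR differed by 4.15 ± 2.43 on the log2 scale in all 9 samples, with a 95% interval of -0.61 to 8.91. Without H9-A4 the difference was -0.31 ± 0.93, with an interval of -2.13 to 1.52, so that the sign depended on that clone. Of all 15532 genes tested 0% were called in this contrast, and again 0% without H9-A4. An unadjusted p under 0.05 (edgeR) was reached by 865 genes, or 5.57%, close to the share that this threshold gives with no difference. DESeq2 called 6 genes.

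The pattern of GRPR, with the 6 other clones below both parental samples and H9-A4, was shared by 8.53% of tested genes. For GRPR the lowest of the 3 high samples was 29.6 times the highest of the 6 low ones. That ratio was at least 16 in 14 genes, among which GRPR ranked 7.

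NMBR, the receptor for neuromedin B, was at or near the detection limit in every sample. It had 0 and 4 implied reads in the parental samples, 3 and 0 in E3 and C10, and 1, 0, 2, 6 and 5 in A6-C9, A9-A12, F6-A7, G1-A5 and H9-A4. The floor for a count of 0 was set at 3 reads, which is 0.131 CPM in RKOparental-1, 0.159 CPM in C10 and 0.126 CPM in A9-A12. Among samples with at least 1 read the highest exact upper bound, of a 95% interval, was 0.598 CPM, in RKOparental-2. BRS3, the orphan receptor of the family, had 0 to 4 reads per sample and 16 in total. Neither receptor passed the filter on low counts, so no fold change is given, and no difference between groups was detectable at this depth.

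GRP, the precursor of gastrin-releasing peptide, was as scarce as NMBR. It had 1 and 2 reads in the parental samples, 2 and 1 in E3 and C10, and 2, 1, 2, 0 and 5 in A6-C9, A9-A12, F6-A7, G1-A5 and H9-A4, which makes 16 reads in the whole series. Its highest exact upper bound was 0.473 CPM, in H9-A4. The 3 samples with GRPR at parental levels held 1, 2 and 5 of these reads. GRP did not pass the filter on low counts either.

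NMB, the precursor of neuromedin B, was the most abundant member and was lowest in the DIP2C-/- clones. It stood at 46.0 and 52.7 CPM in the parental samples and at 26.3 and 22.5 CPM in E3 and C10. The DIP2C+/- clones A6-C9, A9-A12, F6-A7, G1-A5 and H9-A4 had 39.7, 45.7, 38.0, 44.02 and 63.3 CPM. Both DIP2C-/- clones lay below all other 7 samples, as did 4.87% of tested genes. Both also lay below both parental samples, which held for GRPR too and for 26.3% of tested genes. Of the DIP2C+/- clones, H9-A4 lay above both parental samples and the other 4 lay below them. A9-A12 lay just below RKOparental-1, by less than the parental samples differed from each other. The share of genes with this order was not counted.

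The log2 fold change of NMB in DIP2C-/- clones against parental RKO was -1.02 ± 0.25 (SE), with a 95% interval of -1.50 to -0.53, from 49.4 ± 4.71 CPM (SD, n = 2) to 24.4 ± 2.70 CPM (SD, n = 2). It did not pass the test across all genes in all 9 samples (edgeR, unadjusted p = 0.00190, adjusted p = 0.295), where 0.00644% of genes were called. Without H9-A4 the value was -1.01 ± 0.18 and the adjusted p 0.00875, so NMB then fell, and 4.76% of genes were called. DESeq2 on all 9 samples gave an adjusted p of 0.0197, and edgeR on the 4 samples of these groups alone gave 0.00358. The size was similar in these fits, and the call differed with the samples in the fit and with the tool.

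In DIP2C+/- clones NMB differed from parental RKO by -0.10 ± 0.20 on the log2 scale, with an interval of -0.50 to 0.30 and an adjusted p of 0.893 (edgeR). Without H9-A4 the value was -0.24 ± 0.15 with an adjusted p of 0.400. NMB was 0.92 ± 0.22 higher on the log2 scale in DIP2C+/- than in DIP2C-/- clones, with an interval of 0.49 to 1.34, an unadjusted p of 0.00147 and an adjusted p of 0.878. Without H9-A4 it was 0.78 ± 0.16 higher, with an adjusted p of 0.679, and DESeq2 on all samples gave 0.0796. In this contrast the difference was larger than its own error and did not survive the correction for all genes.

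Per kilobase of the main transcript, NMB stood at 75.4 ± 7.19 CPM per kb (SD, n = 2) in parental RKO, above GRPR at 10.02 ± 0.488, GRP at 0.0929 ± 0.0407 and NMBR at 0.0339 ± 0.0479. Over the longest NMB transcript the level was 48.5 CPM per kb, and the order did not change. GRP and NMBR did not differ beyond their spread. In the DIP2C-/- clones NMB stood at 37.3 ± 4.12 CPM per kb, and GRPR at 0.123 ± 0.0524 did not differ beyond the spread from GRP at 0.105 ± 0.0635.

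The Pearson correlation of log2 CPM between GRPR and NMB was 0.58 over 9 samples, which share their libraries. Of the 5 genes most like GRPR among 12685 with a mean of at least 1 CPM, 4 are described here, MYRF, a transcription factor of myelinating cells (r = 0.996), AXIN2, a feedback inhibitor of Wnt signalling (0.994), LGI2, a secreted leucine-rich protein (0.994), and EPS8L2, an actin regulator (0.987). AXIN2 had 84.2 and 101 CPM in the parental samples, 9.98 and 7.66 in E3 and C10, 99.3 in H9-A4 and 3.86 to 9.49 in the other DIP2C+/- clones. These 4 were high in the same 3 samples as GRPR, and 63 genes reached an r of 0.95. By Spearman's rank correlation none of the 5 stayed among the top 5, while 4 of the 5 did without H9-A4.

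**Figure D3:**
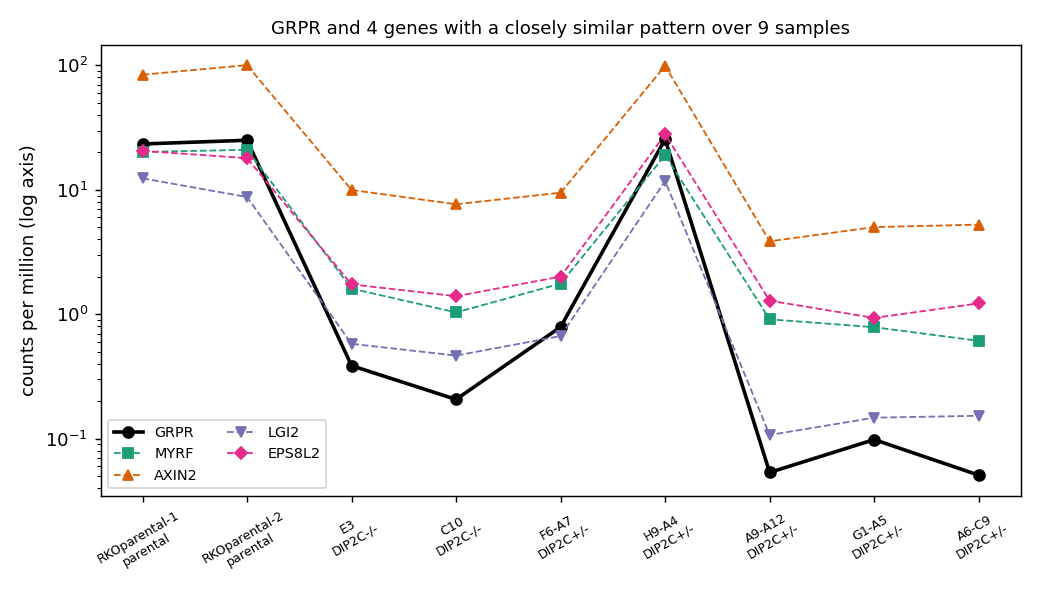
Levels of GRPR (thick black line) and of 4 of the 5 genes with the highest Pearson correlation to it, in CPM on a log axis, in each of the 9 samples, where lines only join the points of 1 gene. All of these genes are high in the parental samples and H9-A4, and GRPR has the widest range, from 0.0510 to 25.5 CPM.

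NMB was most like CERS2, a ceramide synthase (r = 0.970), GRWD1, PIGS, C1orf85 and MYO19 (0.953). CERS2 stood at 187 and 202 CPM in the parental samples, at 138 and 140 CPM in E3 and C10, and at 168 to 208 CPM in the DIP2C+/- clones. These genes were therefore lowest in the DIP2C-/- clones, over a narrower range than NMB.

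The genes beside GRPR on chromosome X were expressed and differed less. AP1S2, a clathrin adaptor subunit 269 kb to 1 side, had 16.3 and 19.5 CPM in the parental samples, 11.01 and 8.65 in E3 and C10, 24.2 in H9-A4 and 7.98 to 9.44 in the other DIP2C+/- clones. CTPS2, a CTP synthase 434 kb to the other side, had 43.0 and 41.7 CPM in the parental samples and 30.2 and 25.5 in E3 and C10, with 44.3 in H9-A4. Both were thus lower in the 6 clones that had little GRPR than in the parental samples and H9-A4, which held for 8.53% of tested genes. Of the 5 nearest genes on each side 7 were tested, with log2 fold changes of -0.87 to -0.06 in DIP2C-/- clones and -0.88 to 0.17 in DIP2C+/- clones, and 0 were called (edgeR), against 0.00644% and 0.0966% of all genes. Without H9-A4 1 was called in DIP2C-/- clones and 2 in DIP2C+/- clones, where 4.76% and 7.95% of all genes were called. TXLNG fell in both contrasts, by 0.66 (adjusted p = 0.0323) and by 0.77 (adjusted p = 0.00410), and AP1S2 fell by 1.04 in DIP2C+/- clones (adjusted p = 0.0106). TXLNG was named after its values were seen.

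**Figure D4:**
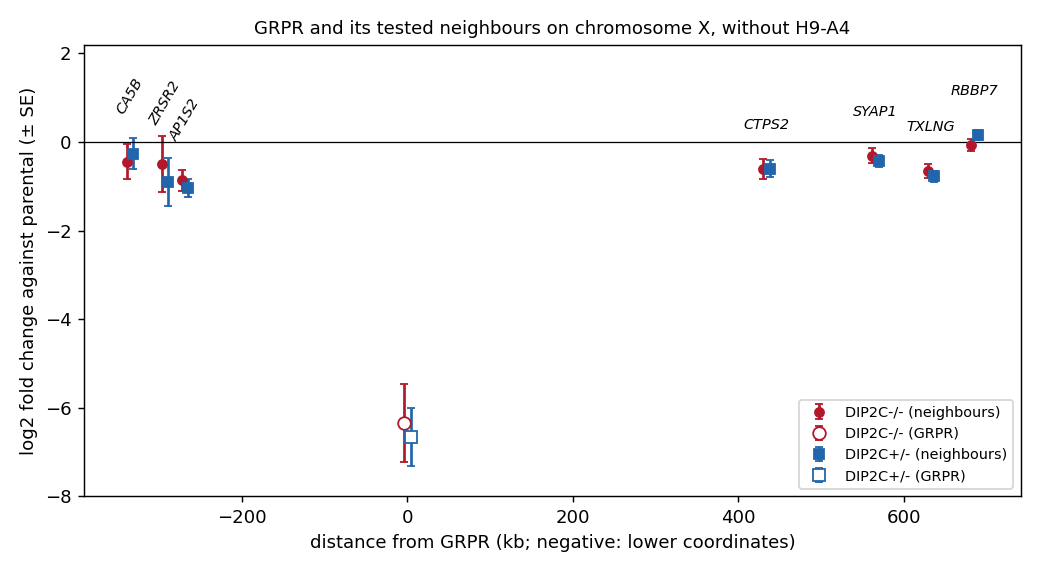
Log2 fold changes (± SE) against parental RKO of GRPR (open symbols) and its 7 tested neighbours (filled symbols), by distance from GRPR in kb, without H9-A4; red is DIP2C-/- and blue is DIP2C+/-. GRPR is at -6.35 and -6.66, and the neighbours are between -1.04 and 0.16.

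Beside NMB on chromosome 15, WDR73 lies 0.786 kb away and SEC11A, a subunit of signal peptidase, 10.98 kb away. In DIP2C-/- clones WDR73 differed from parental RKO by 0.10 ± 0.18 and SEC11A by -0.57 ± 0.29 on the log2 scale. Without H9-A4 these values were 0.11 ± 0.17 and -0.57 ± 0.28. None of 8 tested neighbours of NMB was called in all 9 samples, and none of the 7 that were tested without H9-A4 was called there (edgeR). Over all genes, 0.00644% were called in DIP2C-/- clones and 0.0966% in DIP2C+/- clones, and 4.76% and 7.95% without H9-A4.

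The wider pathway was followed in 6 lists of 96 genes, of which 56 were tested. In all 9 samples 0 of the 56 were called in DIP2C-/- clones, in DIP2C+/- clones or between the genotypes, against 0.00644%, 0.0966% and 0% of all genes. Without H9-A4, 2 were called higher and 3 lower in DIP2C-/- clones, and 2 higher and 5 lower in DIP2C+/- clones, where 4.76% and 7.95% of all genes were called. The median log2 fold change of the 56 in all 9 samples was 0.08 in DIP2C-/- clones, beside 0.02 over all genes, and both were the same to 2 decimals without H9-A4.

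The transducers downstream of the receptors are the Gq/11 proteins, phospholipase C beta, the calcium release channels and protein kinase C, and 21 of 23 were tested. RASGRP2, which couples calcium and diacylglycerol to the small G protein Rap1, had 3.58 and 5.17 CPM in the parental samples, 0.386 and 0.207 in E3 and C10, 3.22 in H9-A4 and 0.268 to 0.487 in the other DIP2C+/- clones. Its level followed GRPR, high in the parental samples and H9-A4, a split that 8.53% of tested genes shared. Its log2 fold change was -3.87 ± 1.23 in DIP2C-/- clones (edgeR, adjusted p = 0.318). Without H9-A4, RASGRP2 fell in both contrasts, with log2 fold changes of -3.87 (adjusted p = 0.00514) and -3.57 (adjusted p = 0.000933).

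PLCB2, a phospholipase C that Gq activates, had 6.22 and 4.12 CPM in the parental samples, 1.03 and 0.362 in E3 and C10 and 7.30 in H9-A4. Without H9-A4 it fell by 2.53 in DIP2C+/- clones (adjusted p = 0.0396) and had a value of -2.90 ± 0.85 in DIP2C-/- clones (adjusted p = 0.0856). PRKCA, protein kinase C alpha, which was named after its values were seen, fell by 1.09 (adjusted p = 0.0109) and by 1.12 (adjusted p = 0.00225) without H9-A4. With H9-A4 the adjusted p of PLCB2 and PRKCA was 0.354 to 0.644 and neither was called. ITPR3, an inositol trisphosphate receptor that was the most abundant gene of the list, had a log2 fold change of 0.68 ± 0.38 in DIP2C-/- clones (adjusted p = 0.478), and of 0.68 ± 0.30 without H9-A4 (adjusted p = 0.249). Of the 21 tested genes 13 had a log2 fold change above 0 in DIP2C-/- clones and 8 below, with a median of 0.09 beside 0.02 over all genes.

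Receptor desensitisation genes, the arrestins and G protein-coupled receptor kinases, were all tested and none of the 7 was called with or without H9-A4 (edgeR). The shares of all genes called were 0.00644% in DIP2C-/- clones and 0.0966% in DIP2C+/- clones, and 4.76% and 7.95% without H9-A4. GRK5 differed by 0.68 ± 0.42 and ADRBK1, which encodes GRK2, by -0.52 ± 0.19 on the log2 scale in DIP2C-/- clones. Without H9-A4 the values were 0.69 ± 0.32 (adjusted p = 0.276) and -0.52 ± 0.14 (adjusted p = 0.0718).

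Bombesin is known to stimulate tyrosine phosphorylation of focal adhesion proteins, and all 6 genes of that list were tested. PXN, the adaptor paxillin, had 124 and 130 CPM in the parental samples, 303 and 267 in E3 and C10, 74.0 in H9-A4 and 326 to 557 in the other DIP2C+/- clones. It was higher in the 6 clones with little GRPR and lowest in H9-A4. The share of all tested genes split in this direction was not counted, so how common such a split was cannot be said. By a different measure, 96 of 12685 genes compared with GRPR had a Pearson correlation of -0.95 or below with it. Whether PXN was among these 96 is not given. Without H9-A4, PXN rose by 1.16 ± 0.24 (adjusted p = 0.0192) and by 1.62 ± 0.22 (adjusted p = 0.00138), and PTK2, focal adhesion kinase, rose by 0.68 (adjusted p = 0.0427) and by 0.60 (adjusted p = 0.0313). With H9-A4 the adjusted p of these values was 0.357 to 0.452. The values are of mRNA, and phosphorylation was not measured.

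**Figure D5:**
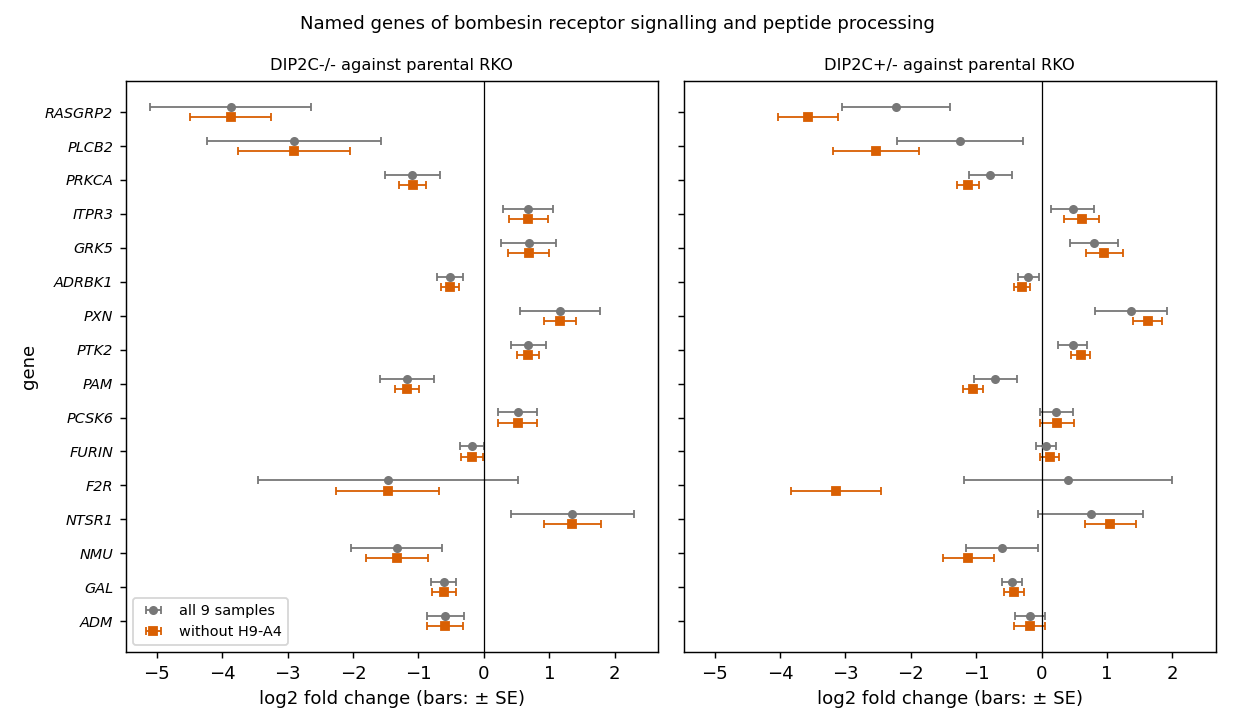
Log2 fold changes (± SE) of 16 named pathway genes against parental RKO, in DIP2C-/- clones (left) and DIP2C+/- clones (right), from all 9 samples (grey circles) and without H9-A4 (orange squares). RASGRP2 and PLCB2 lie lowest in DIP2C-/- clones, PXN and PTK2 lie above 0 in both panels, and leaving out H9-A4 turns F2R from 0.41 to -3.15 in DIP2C+/- clones.

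Precursor processing was represented by 12 genes, of which 10 were tested. PAM, the enzyme that amidates the end of bombesin-like peptides, had 86.9 and 85.5 CPM in the parental samples, 32.5 and 43.8 in E3 and C10, 97.3 in H9-A4 and 35.5 to 44.5 in the other DIP2C+/- clones. The 6 low clones did not overlap the parental samples or H9-A4, as was also the case for 8.53% of tested genes. PAM had a log2 fold change of -1.17 ± 0.41 in DIP2C-/- clones (edgeR, adjusted p = 0.337). Without H9-A4 it fell by 1.17 ± 0.19 (adjusted p = 0.00505) and by 1.05 ± 0.15 in DIP2C+/- clones (adjusted p = 0.00207). The convertases FURIN and PCSK6 had values of -0.18 ± 0.18 and 0.52 ± 0.30 in DIP2C-/- clones, and neither was called in any of these fits.

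Other peptide systems were sparse in these cells. Of 26 other Gq-coupled peptide receptors 23 averaged under 1 CPM, as did 19 of 22 other regulatory peptide genes. NTSR1, the neurotensin receptor, had 19.3 and 18.9 CPM in the parental samples, 46.1 and 51.4 in E3 and C10 and 2.32 in H9-A4, with 15.8 to 57.0 in the other DIP2C+/- clones. NTSR1 was thus lowest in H9-A4, and 1 of the other DIP2C+/- clones, G1-A5, lay below the parental samples too. Its log2 fold change of 1.35 ± 0.94 in DIP2C-/- clones was not called (edgeR, adjusted p = 0.571), nor was the 1.35 ± 0.44 without H9-A4 (adjusted p = 0.113). F2R, the thrombin receptor, had 1.65 and 1.98 CPM in the parental samples and 11.3 CPM in H9-A4. The other DIP2C+/- clones had 0.0608 to 0.483 CPM, on 1 to 12 reads, near the detection limit. Without H9-A4, F2R fell by 3.15 in DIP2C+/- clones (edgeR, adjusted p = 0.0179). In DIP2C-/- clones its value of -1.47 ± 0.78 was not called (adjusted p = 0.350). With H9-A4 the F2R value there was 0.41 ± 1.59 (adjusted p = 0.948).

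Among the peptide genes GAL, the galanin precursor, differed by -0.61 ± 0.19 and NMU, the neuromedin U precursor, by -1.34 ± 0.69 on the log2 scale in DIP2C-/- clones. ADM, adrenomedullin, was the most abundant of them at a mean of 29.7 CPM and differed by -0.59 ± 0.28. Without H9-A4 the values were -0.61 ± 0.18 for GAL, -1.34 ± 0.47 for NMU and -0.59 ± 0.28 for ADM. None of the 5 tested was called with or without H9-A4 (edgeR). Of all genes, 0.00644% were called in DIP2C-/- clones and 0.0966% in DIP2C+/- clones, and 4.76% and 7.95% without H9-A4.

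Of the leukocyte markers CD68 was the most abundant, at a mean of 392 CPM. The summed level of the 4 markers was 86.7 and 87.0 CPM in the parental samples and 465 and 476 in the DIP2C-/- clones. It was 17.3 CPM in H9-A4, with up to 674 CPM in the other DIP2C+/- clones. H9-A4 thus lay below the parental samples in this sum, while its GRPR was level with them. The share of all genes with this order was not counted. Other marker lists moved as well. The summed level of the 5 epithelial markers was 230 to 287 CPM in the parental samples, 133 to 167 in the DIP2C-/- clones and 166 to 315 in the DIP2C+/- clones, with 181 in H9-A4. That of the 7 neuroendocrine markers was 46.2 to 66.6 CPM in the parental samples, 45.7 to 46.6 in the DIP2C-/- clones and 91.8 in H9-A4, the highest, and most of it was ENO2. The fibroblast and endothelial lists summed to 2.51 to 6.52 CPM and 1.43 to 4.20 CPM over all samples. PTPRC, which defines leukocytes, was at 0.255 to 0.791 CPM in all 9 samples. The part of these markers in the results for GRPR and NMB was not tested, and selection and single-cell growth cannot be told apart from genotype.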

How the data were processed

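RNA of 9 cultures was sequenced on the Ion Proton system and, per the study's methods and the submitters' notes, aligned to hg19 with TopHat2 (2.0.4) and quantified with Cufflinks (2.2.1 in the notes). The authors deposited 1 estimated count per gene symbol and sample, and these values were mostly whole multiples of a per-sample step of 0.711 to 1.11 (97.9% to 98.4% of low values within 0.02), taken as the value of 1 read. How the authors scaled them is not given in the sources used here. The design had assumed whole counts, so the estimated counts were rounded. Genes kept by filterByExpr (15532) were scaled by TMM and fitted with 1 coefficient per genotype in edgeR 4.0.16 (R 4.3.3), and contrasts were called by its quasi-likelihood F test at a Benjamini-Hochberg adjusted p under 0.05. CPM used the TMM factors and likeness log2 CPM with a prior count of 2. Intervals of read shares and of low counts, and floors (3 reads), cover counting error only. Intervals of log2 fold changes are normal intervals from the edgeR SE, which was derived from the F statistic. They include the spread between samples and can be narrower than the F test implies.

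The 4 members, the lists and the tests were chosen with earlier results of these data known. Named genes were the members, BRS3, DIP2C, the genes called in each list or the 2 with the largest change in DIP2C-/- clones at a mean of at least 1 CPM, the most abundant gene of each list, the 5 genes most like GRPR and NMB, and their nearest measured neighbours. Positions and transcript lengths are from GENCODE 44 mapped to GRCh37, which has the coordinates of hg19, and promoters from RefSeq on GRCh38.p14, matched by symbol for all 5 family genes. Pairs of samples of 1 group had a chi-square statistic of at least 20.8 per degree of freedom, so none was counted as a repeat. The scripts were tested on simulated data. For edgeR the simulated spread between samples was smaller than in these data, so that test does not show how many changes could be found here. No sequencing batch is given in the labels. DESeq2 1.42.0 and the other alternatives are compared in the closing section. Protein sequences and the methylation arrays were not used here. Of the genes most like GRPR, 1 is not reported here. Statistics outside edgeR used Python 3.11.15, pandas 2.3.3, numpy 2.4.6 and scipy 1.17.1.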

Additional observations from a re-analysis of the deposited data

Results flagged for a closer look

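In 22 sets of 5 DIP2C+/- clones, 1 for each named gene examined, 4 held a clone that stood far from the other 4. The measure was the gap to its nearest neighbour over the whole range of log2 CPM, where chance gives about 1 in 20 for a single set. The sets share the same 5 libraries and some genes were named for their change, so that rate is no yardstick for 4 of 22. H9-A4 was the outlying clone for RASGRP2 (0.79 of the range), PAM (0.777) and PXN (0.735). F6-A7 was that clone for ADM, with 0.811 of the log2 range, at 19.9 CPM where the other 4 had 31.2 to 34.6 CPM. What sets H9-A4 or F6-A7 apart was not tested.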

How the results depend on the processing

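No paired analysis was possible because only the parental samples carry numbers in the labels and the clones carry names, so no number links a sample of 1 group to a sample of another, and no replicate block was fitted. GRPR could not pass a filter of 10 counts in every sample, and DESeq2 gave it no p-value.

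With each sample left out in turn, the log2 fold change of GRPR in DIP2C-/- clones was -6.81 to -5.98, that of GRPR in DIP2C+/- clones -6.66 (without H9-A4) to -1.87, and that of GRPR between the genotypes -0.31 (without H9-A4) to 4.61. NMB ranged from -1.13 to -0.93 in DIP2C-/- clones, with adjusted p of 0.00875 to 0.768 (edgeR), and from -0.24 to 0.0088 (without RKOparental-2) in DIP2C+/- clones. In DIP2C-/- clones, a fit of only these 2 groups gave -1.03 for NMB and DESeq2 gave -1.02, and both called it.

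Of named genes in DIP2C+/- clones, F2R ranged from -3.15 (without H9-A4) to 0.72, FURIN from 0.00 (-0.0046, without A9-A12) to 0.12 and ADM from -0.39 to 0.10 (without RKOparental-1), with turned signs. The listed pathway genes called in DIP2C-/- clones numbered 9 in the fit of only these groups and 1 with DESeq2, and 0 to 5 with samples left out. In DIP2C+/- clones they numbered 0 to 7. Over all genes, those called in DIP2C-/- clones were 1 in the fit of all samples, 3 with no filter, 0 with at least 10 counts in every sample, 1807 in the fit of only these groups, 295 with DESeq2 and 1 to 733 with samples left out, the last without H9-A4. In DIP2C+/- clones they were 15, then 8 with at least 10 counts in every sample, 8 in the fit of only these groups, 191 with DESeq2 and 1 to 1224 with samples left out, the last without H9-A4. Between the genotypes they were 0, then 1 in the fit of only these groups, 6 with DESeq2 and 0 to 3 with samples left out. None of the 5 genes most like GRPR was kept under Spearman's correlation (0 of 5). The cause of these differences was not tested. Each value was set against each alternative, so 1 gene can count more than once. In 21 further such pairs a single-gene value became called, mostly without H9-A4 or in the fit of only 2 groups. The remaining 154 pairs of summary values and 540 of single-gene values did not change in direction or call, where these applied.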
